A study of Saccharomyces cerevisiae with 39 samples.

Results

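The 7 genes described here are the 6 genes of the yeast m6A writer complex, IME4, MUM2, SLZ1, KAR4, VIR1 and DYN2, and PHO92, the gene of the yeast m6A reader. They were taken by their identifiers (YGL192W, YBR057C, YNL196C, YCL055W, YGL036W, YDR424C and YDR374C) from a table of 6186 features, and all 7 were among the 5840 features tested. The study sequenced polyadenylated RNA of diploid budding yeast in sporulation medium in 39 libraries, 3 from each of 13 strains, and its title asks which part of the disordered region of Pho92 is needed for m6A-dependent mRNA turnover. Cells grew at 30°C and received 50 µM copper sulphate 3 h after transfer to sporulation medium, in every strain. When the cells were collected is not given by the labels.

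All strains are MATa/alpha, carry ho::LYS2 with lys2 and ura3, and have hisG insertions in 3 genes, namely leu2::hisG, his3::hisG and also trp1::hisG. In 10 strains the endogenous PHO92 is replaced (hyg::pho92) and an HA-tagged variant stands at trp1 under the copper-induced CUP1 promoter. The point variants are W177A, W5A, W18A and W5A_W18A, each a tryptophan-to-alanine change. The deletion variants are 1_70_delete, 28_52_delete, 110_155_delete and 28_52_130_155_delete, named by the residues removed, and W5AW18A_28-52_delete, which joins both substitutions to a deletion. For W5AW18A_28_52_110_155_delete the titles name both substitutions and 2 deletions, whereas the genotype names the deletions alone, so the labels do not settle which it carries. CUP1_Pho92_WT carries the unchanged HA-tagged gene in the same arrangement, Pho92_delete has pho92::HYG and no copy, and WT has the native gene. The titles of the 10 variants also begin with CUP1_Pho92_, left off here. The CUP1 promoter is not the native one, and the labels do not say how many clones stand behind a strain, nor whether the 3 libraries of a strain are separate cultures. The p-values therefore measure only the spread between these libraries.

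N6-methyladenosine (m6A) is the most common internal modification of mRNA, and in budding yeast it is laid down when diploid cells starve and enter meiosis. Ime4 is the catalytic methyltransferase. Mum2, Slz1, Kar4 and Vir1 are the counterparts of the animal writer subunits WTAP, ZC3H13, METTL14 and VIRMA, and Dyn2 is the dynein light chain, a small dimer that also serves the dynein motor and the nuclear pore. Pho92 binds m6A through its YTH domain, and the W177A change removes a tryptophan of the pocket that holds the methylated base.

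Library totals lay between 15928411 and 37186964 counts with a median of 20694394. Levels are given as counts per 1000000 (CPM) scaled by trimmed mean of M-values, and they are compared between strains and not between genes, because no transcript length was used. Differences are log2 values from limma with the model's standard error (SE), and a gene was called at a Benjamini-Hochberg adjusted p under 0.05 over all 5840 features. Where the libraries of strains are said not to overlap, the share of all features that do the same was not computed. 110_155_delete replicate 3 stood apart: its root mean square log2 distance from its strain mates was 0.900, where the median library had 0.402. Early meiotic genes (HOP1, RED1, SPO11, REC8, ZIP1, DMC1, MEI4 and REC104) were present in every library, at a summed 2311 to 12437 CPM. A list of 8 genes specific to haploid cells of 1 mating type, called haploid-specific here, summed to 90.5 to 141 CPM. In WT, STE6 and STE3 made up most of its mean sum of 126 CPM, at 46.6 and 43.3 CPM. The labels speak of an arrest in early meiosis, but 8 middle sporulation genes, which follow the transcription factor Ndt80, summed to 6049 to 26286 CPM in WT. In these bulk cultures, fewer cells at a stage and less RNA per cell cannot be told apart.

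PHO92 itself was examined first. It had 0.941, 2.37 and 0.0919 CPM in the Pho92_delete libraries (20, 45 and 2 counts), against 1054, 957 and 802 CPM in the WT libraries. All 3 Pho92_delete libraries lay far below WT, and the fitted difference was a log2 of -10.22 (SE 0.44, limma adjusted p = 1.58e-16). Against so few counts this value moves with the prior count and with single libraries. In CUP1_Pho92_WT the gene had 8197, 9805 and 11234 CPM, on average 10.4 times the WT mean, a log2 of 3.37 over WT (SE 0.44, limma adjusted p = 2.58e-05). Over Pho92_delete the CUP1_Pho92_WT strain was higher by 13.59, and the 10 variants were higher by 12.79 to 14.21. PHO92 was thus called in all 11 comparisons of a CUP1-driven strain with Pho92_delete, as the genotypes require.

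**Figure D1:**
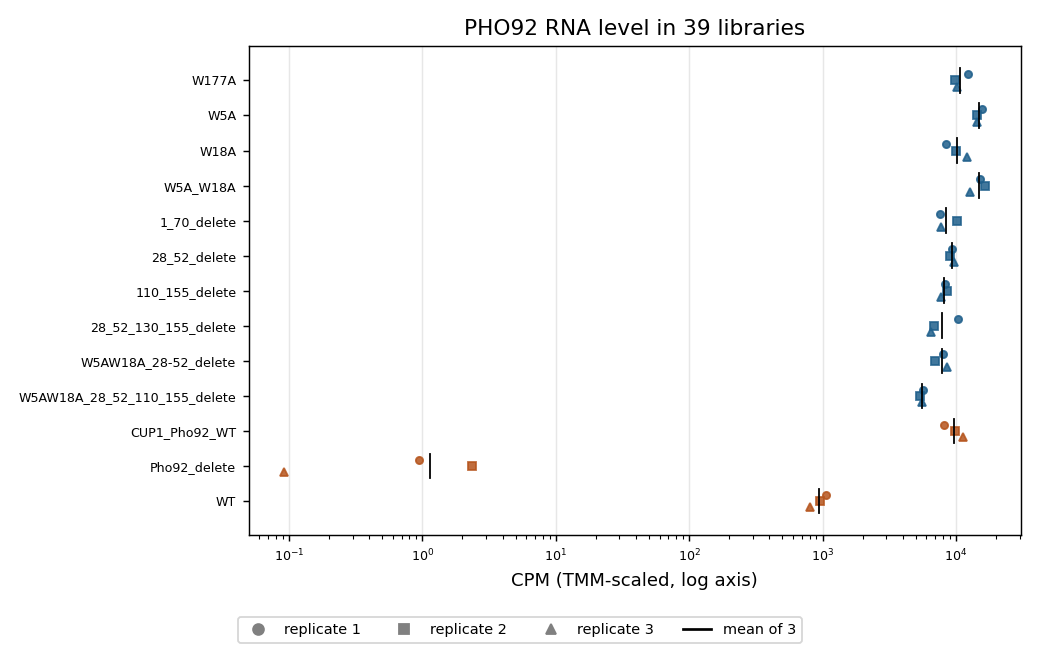
PHO92 RNA level in each library on a logarithmic CPM axis, with strains down the page, 1 symbol per replicate and a bar for the mean of 3. The 11 CUP1-driven strains lie between 5384 and 16626 CPM, the WT libraries between 802 and 1054 CPM, and the Pho92_delete libraries at 2.37 CPM or below.

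The CUP1-driven strains did not all hold the same amount of PHO92 RNA. W5A_W18A had 15182, 16626 and 12749 CPM and W5A had 15550, 14441 and 14379 CPM, each library above the highest of CUP1_Pho92_WT. W5AW18A_28_52_110_155_delete had 5682, 5384 and 5563 CPM, each below the lowest of CUP1_Pho92_WT. The other 7 variants averaged 7866 to 10700 CPM and overlapped CUP1_Pho92_WT. From the lowest to the highest of the 11 strain means the range was 2.68-fold. In the order of the 13 strain means, 8 of 12 neighbours overlapped. Codons that a strain lacks give no reads and no correction was made for them, so the deletion strains may be counted low. Genes of the copper response (CUP1-1, CUP2, CRS5, CTR1 and SOD1) are set beside these values, since copper drives the CUP1 promoter. They summed to 2730 to 3807 CPM in W5A, 2770 to 3457 CPM in W5A_W18A and 1899 to 2388 CPM in W5AW18A_28_52_110_155_delete, against 1874 to 2567 CPM in CUP1_Pho92_WT. W5A and W5A_W18A thus lay above CUP1_Pho92_WT for this sum as for PHO92, while W5AW18A_28_52_110_155_delete lay within its range. In 110_155_delete and W177A, which overlapped CUP1_Pho92_WT for PHO92, the sum was 2120 to 3282 and 2292 to 3093 CPM. CUP1-1 dominates this sum, with 1639 CPM of a mean 2229 CPM in WT. It also mixes directions, since CTR1 and CUP2 went opposite ways in the comparisons given further on. The part of the copper response in the PHO92 differences was not tested.

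In the fit of all 39 libraries none of the 10 variants was called for PHO92 against CUP1_Pho92_WT, none reached an unadjusted p under 0.05, and the test over the 11 CUP1-driven strains gave an adjusted p of 0.152. That fit shares 1 spread per gene over all strains, and the near-empty Pho92_delete libraries enter it: the SE of PHO92 was 0.438 with them and 0.175 in a fit of the other 36 libraries, added after the data were seen. In the 36-library fit W5A was higher than CUP1_Pho92_WT by a log2 of 0.61 (limma adjusted p = 0.00778), where 39.4% of 5834 features were called. W5A_W18A was higher by 0.61 (adjusted p = 0.00951), where 34% were called. W5AW18A_28_52_110_155_delete was lower by 0.80 (log2 -0.80, adjusted p = 0.00204), where 12.9% were called. Between CUP1_Pho92_WT and WT, 1.75% were called and PHO92 among them. The test over the 11 CUP1-driven strains gave PHO92 an adjusted p of 5.62e-06, with 62% of features called. In fits of only the 6 libraries compared, W5A and W5A_W18A kept the call (adjusted p = 0.0305 and 0.0285) and W5AW18A_28_52_110_155_delete lost it (0.0897).

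Loss of PHO92 was accompanied by lower RNA of SLZ1 and KAR4. Of the 6 writer genes, 2 were called in Pho92_delete against WT, both lower. Among all features 33.2% were called, 14.8% of them all as lower. Calls in either direction were thus about as common among the writer genes as among all features. SLZ1 had 1864, 953 and 975 CPM in Pho92_delete, against 2551, 2591 and 1833 CPM in WT. The highest Pho92_delete library slightly exceeded the lowest WT library, and the difference was -0.94 (SE 0.36, limma adjusted p = 0.0442). KAR4 had 175, 145 and 121 CPM in Pho92_delete, against 237, 215 and 192 CPM in WT. These groups did not overlap, and the difference was -0.56 (SE 0.17, limma adjusted p = 0.017). Both calls rest on single libraries. SLZ1 was no longer called without Pho92_delete replicate 2 or 3 (log2 -0.77 and -0.79, adjusted p = 0.182 and 0.153), or without WT replicate 1 or 2 (-0.84 and -0.88, adjusted p = 0.135 and 0.127). KAR4 was no longer called without Pho92_delete replicate 2 or 3 (-0.56 and -0.43, adjusted p = 0.0572 and 0.103) or WT replicate 1 (-0.46, adjusted p = 0.0841). In a fit of the 6 libraries alone neither was called, with adjusted p of 0.0717 for SLZ1 and 0.063 for KAR4, and with voom weights SLZ1 missed the threshold (adjusted p = 0.0504).

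The other 4 writer genes did not pass the test on loss of PHO92. IME4, the catalytic subunit, had 238, 173 and 227 CPM in Pho92_delete, against 252, 254 and 261 CPM in WT. Each Pho92_delete library lay below each WT library, but the difference of -0.28 had a 95% interval of -0.71 to 0.15 (limma adjusted p = 0.317). MUM2 had 457, 318 and 349 CPM in Pho92_delete, against 455, 471 and 429 CPM in WT. For MUM2 the difference was -0.29 with an interval of -0.71 to 0.14, for VIR1 -0.06 with an interval of -0.61 to 0.49, and for DYN2 0.13 with an interval of -0.16 to 0.43. The intervals of IME4, MUM2 and VIR1 include a fall of the size found for KAR4, and that of DYN2 does not.

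With the copper-driven copy of the unchanged gene, SLZ1 and KAR4 were higher than without any copy. In CUP1_Pho92_WT against Pho92_delete, 2 of the 6 writer genes were called, both higher. Among all features 39.9% were called, 19.2% of them all as higher. Calls in either direction were thus no more common among the writer genes than among all features. SLZ1 had 2523, 2843 and 1958 CPM in CUP1_Pho92_WT, all above the Pho92_delete libraries, a log2 of 1.01 (SE 0.36, limma adjusted p = 0.0264). KAR4 had 237, 229 and 209 CPM in CUP1_Pho92_WT, again all above Pho92_delete, a log2 of 0.63 (SE 0.17, limma adjusted p = 0.00597). The KAR4 call held in all 6 fits that left out a library, with an adjusted p of at most 0.0496. SLZ1 lost its call without CUP1_Pho92_WT replicate 1 or 2 (1.00 and 0.91, adjusted p = 0.0718 and 0.0893) and without Pho92_delete replicate 2 or 3 (0.84 and 0.86, adjusted p = 0.117 and 0.104), and when only the 6 libraries were fitted (adjusted p = 0.0542). The comparison shares its Pho92_delete libraries with the one before, so the 2 are not independent.

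Between CUP1_Pho92_WT and WT none of the 6 writer genes was called by limma, with or without voom weights, and none reached an unadjusted p under 0.05. Of all features 1.66% were called, and PHO92 was among them. The 95% interval was -0.66 to 0.80 for SLZ1 and -0.29 to 0.43 for KAR4. For IME4 the interval was -0.32 to 0.54, for MUM2 -0.47 to 0.39, for VIR1 -0.60 to 0.50 and for DYN2 -0.18 to 0.41.

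**Figure D2:**
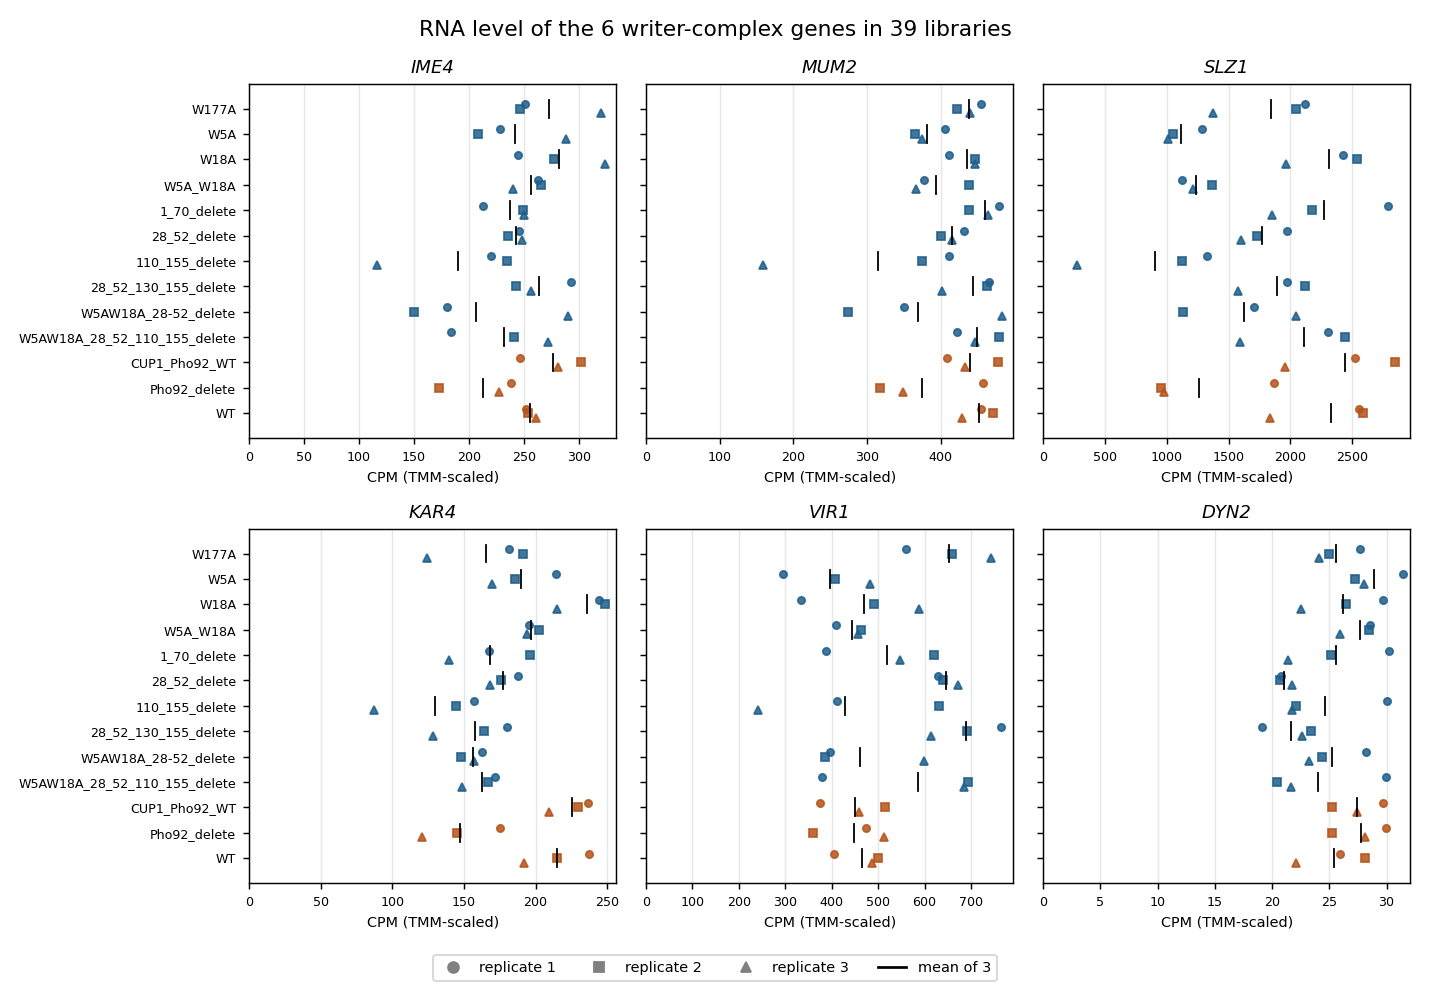
RNA level of the 6 writer-complex genes in each library, in CPM from 0, with strains down the page, 1 symbol per replicate and a bar for the mean of 3; CUP1_Pho92_WT, Pho92_delete and WT are in orange. SLZ1 runs from 274 to 2843 CPM and KAR4 from 87.6 to 248 CPM, and 110_155_delete replicate 3 is the lowest of all for IME4, MUM2, SLZ1, KAR4 and VIR1.

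Among the writer genes, strain means ranged most widely for SLZ1, whose product is known to carry the writer complex into the nucleus. Over all 13 strains SLZ1 was called as differing (limma F-test adjusted p = 0.00241), and so was KAR4 (adjusted p = 0.00141), where 64.5% of features were called. Over the 11 CUP1-driven strains the same 2 writer genes were called (adjusted p = 0.00305 for SLZ1 and 0.00268 for KAR4), where 62.5% of features were called. Strain means of SLZ1 ran over a 2.69-fold range, from 906 CPM in 110_155_delete to 2441 CPM in CUP1_Pho92_WT. No neighbours in the order of the 13 means were apart: each strain's range overlapped the next. The same held for KAR4, MUM2, VIR1 and DYN2, and for IME4 in 11 of 12 steps, the exception being 28_52_delete below WT. Sorting by mean sets close strains side by side, so overlap of neighbours does not show that the strains are alike.

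Of the 60 comparisons of a writer gene between a variant and CUP1_Pho92_WT, 8 were called, all lower, where 21.3% of all features were called over the same 10 comparisons together. They fell in 5 variants: 4 in 110_155_delete, 1 each in W5A, W5A_W18A, 28_52_130_155_delete and W5AW18A_28-52_delete. SLZ1 was called in 3 variants and KAR4 in 3. These comparisons share the 3 CUP1_Pho92_WT libraries. On leaving out CUP1_Pho92_WT replicate 2 there were 2 calls, and on leaving out its replicate 1 there were 5. The shares of all features called in those fits are not given here, so these counts have no background beside them.

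In 110_155_delete, 45.8% of all features were called against CUP1_Pho92_WT. SLZ1 had 1323, 1121 and 274 CPM, against 2523, 2843 and 1958 CPM in CUP1_Pho92_WT, with no overlap and a difference of -1.70 (SE 0.36, limma adjusted p = 0.00043). KAR4 had 157, 144 and 87.6 CPM, against 237, 229 and 209 CPM, with no overlap and a difference of -0.84 (SE 0.17, limma adjusted p = 0.000394). IME4 had 220, 234 and 116 CPM, against 246, 302 and 281 CPM, and MUM2, the scaffold of the complex, had 411, 374 and 159 CPM, against 409, 478 and 433 CPM. Both were lower by 0.60 (log2 -0.60, adjusted p = 0.0213 and 0.0217). Replicate 3 carries the lowest value of all 4 genes. Without it SLZ1 remained lower by 0.99 (log2 -0.99, adjusted p = 0.00648) and KAR4 by 0.58 (log2 -0.58, adjusted p = 0.00822), but IME4 was at -0.28 (adjusted p = 0.282) and MUM2 at -0.16 (adjusted p = 0.43). IME4 and MUM2 also lost their calls without CUP1_Pho92_WT replicate 2 (log2 -0.53 each, adjusted p = 0.0872 and 0.0833). In a fit of the 6 libraries alone none of the 4 was called, with adjusted p from 0.0746 for KAR4 to 0.291 for MUM2.

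In W5A, 39% of all features were called against CUP1_Pho92_WT, and SLZ1 was the writer gene among them. It had 1283, 1053 and 1013 CPM in W5A, all below CUP1_Pho92_WT, a difference of -1.12 (SE 0.36, limma adjusted p = 0.0147). The call was lost without CUP1_Pho92_WT replicate 2 (-1.04, adjusted p = 0.0556) and held in the other 5 fits that left out a library. W5A_W18A had 33.2% of features called and again SLZ1 alone among the writer genes. Its 1122, 1370 and 1213 CPM lay below all CUP1_Pho92_WT libraries, a difference of -0.97 (SE 0.36, limma adjusted p = 0.0371). That call was lost on leaving out any W5A_W18A library (log2 -0.90 without replicate 1, -1.05 without replicate 2 and -0.96 without replicate 3, adjusted p = 0.102, 0.0567 and 0.0818) and on leaving out CUP1_Pho92_WT replicate 1 or 2 (-0.95 and -0.87, adjusted p = 0.111 and 0.12). KAR4 did not pass in either: it was at -0.25 in W5A, with a 95% interval of -0.61 to 0.11, and at -0.19 in W5A_W18A, with an interval of -0.55 to 0.17.

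For W18A, the other single substitution of the pair, no difference from CUP1_Pho92_WT was called. Limma called 0% of features between W18A and CUP1_Pho92_WT, with 13 at an unadjusted p under 0.05, none of them a writer gene, and none called with voom weights. That is far fewer than a threshold of 0.05 would pass if nothing differed. The test thus ran conservative here, and the lack of calls does not show that the strains are the same. SLZ1 had 2429, 2540 and 1964 CPM in W18A, each within the CUP1_Pho92_WT range, and its interval was -0.80 to 0.66. KAR4 had 244, 248 and 215 CPM in W18A, with an interval of -0.29 to 0.42. Whether the W5A effect depends on W18A was tested directly, by a contrast added after the data were seen: the SLZ1 effect of W5A with W18A minus that without it was 0.22 (SE 0.51), and none of the 5840 features was called (8 at an unadjusted p under 0.05, 0 with voom weights). Here too the threshold passed far fewer features than it would if nothing differed, so this contrast does not show independence. W5A and W18A were not set against each other directly.

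KAR4, the METTL14 counterpart and also a transcription factor of mating, was called lower in 2 further variants. In 28_52_130_155_delete, with 21.6% of features called, it had 180, 164 and 129 CPM, a difference of -0.53 (SE 0.17, limma adjusted p = 0.0302). This call was lost without replicate 3 of that strain (-0.39, adjusted p = 0.17) or without CUP1_Pho92_WT replicate 1 or 2 (-0.50 and -0.52, adjusted p = 0.0989 and 0.0736). In W5AW18A_28-52_delete, with 11.5% called, it had 163, 148 and 157 CPM, a difference of -0.53 (SE 0.17, limma adjusted p = 0.0461). This call was lost without its replicate 1 or 2 (-0.56 and -0.49, adjusted p = 0.0842 and 0.164) and without CUP1_Pho92_WT replicate 1 or 2 (-0.52 and -0.55, adjusted p = 0.119 and 0.102), and when only the 6 libraries were fitted (adjusted p = 0.0979).

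In the other 4 variants no writer gene was called against CUP1_Pho92_WT by limma without the replicate number as a term, with or without voom weights. With that term, KAR4 was called lower in each of these variants and DYN2 was called in 28_52_delete. The share of all features called in that fit is not given here, and the values that follow are without the term. KAR4 lay below all CUP1_Pho92_WT libraries in each of the 4, where the share of all features without overlap was not computed. In W177A, with 20.5% of features called, it had 181, 191 and 124 CPM, a difference of -0.47 with an interval of -0.82 to -0.11 (limma adjusted p = 0.0578). In 1_70_delete, with 9.26% called, it had 168, 196 and 140 CPM, at -0.43 (adjusted p = 0.131). In 28_52_delete, with 19.3% called, it had 188, 176 and 168 CPM, at -0.35 (adjusted p = 0.159). In W5AW18A_28_52_110_155_delete, with 13% called, it had 172, 167 and 148 CPM, at -0.47 (adjusted p = 0.0743). One writer gene reached an unadjusted p under 0.05 in each of these 4 variants, KAR4 in all but 28_52_delete, where it was DYN2. Of all 5840 features, 2020 were under that threshold in W177A and 1233 in 1_70_delete. There were 2002 in 28_52_delete and 1430 in W5AW18A_28_52_110_155_delete. SLZ1 overlapped CUP1_Pho92_WT in all 4, at differences of -0.45 to -0.11.

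**Figure D3:**
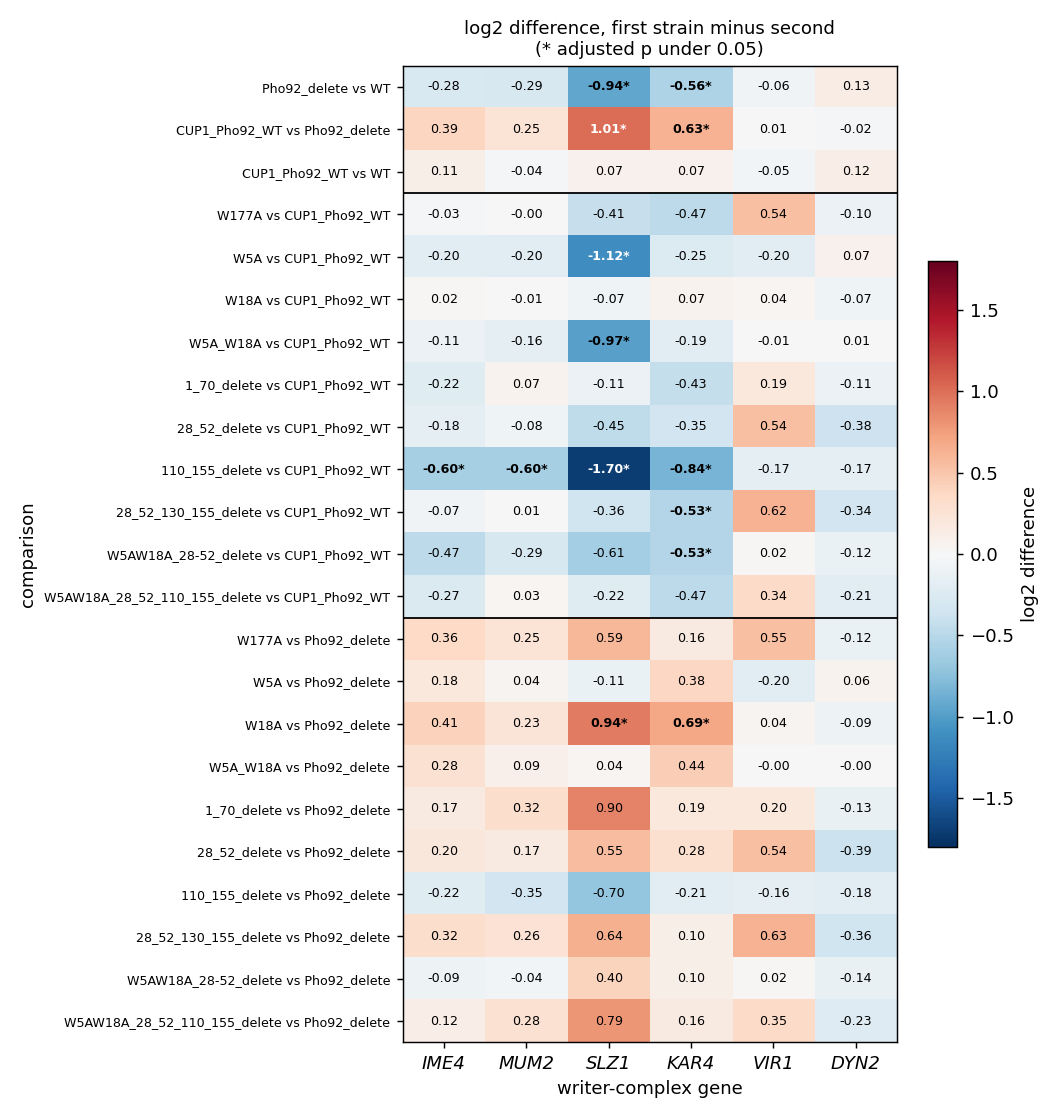
Fitted log2 difference of each writer-complex gene (columns) in each comparison (rows, first strain minus second), with a colour scale from blue (lower in the first strain) to red (higher) and an asterisk at an adjusted p under 0.05. SLZ1 and KAR4 hold 12 of the 14 asterisks, and IME4 and MUM2 have theirs in 110_155_delete alone.

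In the fit of all 39 libraries without the replicate number as a term, VIR1 and DYN2 were not called in any of the 23 comparisons of pairs of strains. With that term, both were called in 28_52_130_155_delete against CUP1_Pho92_WT. DYN2 was then also called in 28_52_delete, against CUP1_Pho92_WT and against Pho92_delete. The share of all features called with the term is not given here, and the differences below are without it. Over all libraries VIR1 ran from 241 to 765 CPM and DYN2 from 19.1 to 31.5 CPM. VIR1 had its highest means in 28_52_130_155_delete (690 ± 76.0 CPM), W177A (653 ± 91.3 CPM) and 28_52_delete (647 ± 21.7 CPM; SD, n = 3 each), and 450 ± 70.7 CPM in CUP1_Pho92_WT. All 9 libraries of those variants lay above the CUP1_Pho92_WT range. The variants were picked here by their VIR1 means, and the share of all features without overlap was not computed. The differences were 0.62, 0.54 and 0.54, with limma adjusted p of 0.0937, 0.151 and 0.157. The early meiotic sum had its highest means in the same 3 strains, at 11778, 11153 and 11065 CPM, against 8469 CPM in CUP1_Pho92_WT. Its part in the VIR1 values was not tested. DYN2 had the narrowest range of strain means of the 7, 1.37-fold. In 28_52_delete it had 20.8, 20.7 and 21.8 CPM, all below the 29.7, 25.2 and 27.5 CPM of CUP1_Pho92_WT, a difference of -0.38 (adjusted p = 0.0635). In 28_52_130_155_delete it was at -0.34 (adjusted p = 0.088).

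Whether the 28_52 deletion acted alike with and without W5A and W18A was tested as a difference of differences, chosen after the data were seen. For SLZ1 the deletion effect in the presence of both substitutions exceeded that in their absence by 0.81 (SE 0.51, limma adjusted p = 0.288), and for VIR1 the value was -0.51 (adjusted p = 0.382). No member was called, where 12.6% of features were.

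The variants were also compared with Pho92_delete. Of 60 such comparisons of a writer gene 2 were called higher, where 9.97% of all features were called over the 10 comparisons together. Both calls were in W18A, where 38.4% of features were called. SLZ1 was higher in W18A than in Pho92_delete by 0.94 (SE 0.36, limma adjusted p = 0.0396) and KAR4 by 0.69 (SE 0.17, adjusted p = 0.00316). The KAR4 call held in all 6 fits that left out a library. SLZ1 lost it without W18A replicate 1 or 2 (0.91 and 0.86, adjusted p = 0.099 and 0.113) or Pho92_delete replicate 2 or 3 (0.77 and 0.79, adjusted p = 0.161 and 0.142), and when only the 6 libraries were fitted (adjusted p = 0.0627).

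In the other 9 variants no writer gene was called against Pho92_delete by limma without the replicate number as a term, with or without voom weights. PHO92 was the member called in each. With that term, SLZ1 was called in 1_70_delete, DYN2 in 28_52_delete and KAR4 in W5A and W5A_W18A. The share of all features called with the term is not given here. Without it, the share of features called was 14.6% in W5A, 11.7% in W5AW18A_28_52_110_155_delete, 10.6% in 1_70_delete and 10.5% in W5A_W18A. It was 4.83% in W177A, 4.5% in 28_52_delete, 3.42% in 28_52_130_155_delete, 0.925% in W5AW18A_28-52_delete and 0.205% in 110_155_delete. At an unadjusted p under 0.05 there were 2 writer genes in 28_52_130_155_delete (VIR1 and DYN2), 1 each in 1_70_delete and W5AW18A_28_52_110_155_delete (SLZ1), W5A and W5A_W18A (KAR4) and 28_52_delete (DYN2), and none in the rest. Of all 5840 features, 1293 were under that threshold in 28_52_130_155_delete, 1783 in 1_70_delete and 1962 in W5AW18A_28_52_110_155_delete. There were 1631 in W5A, 1431 in W5A_W18A and 1421 in 28_52_delete. In the rest there were 1406 in W177A, 953 in W5AW18A_28-52_delete and 708 in 110_155_delete. SLZ1 in W5A was at -0.11 from Pho92_delete with an interval of -0.85 to 0.62, and in W5A_W18A at 0.04 with an interval of -0.70 to 0.77. In 1_70_delete SLZ1 had 2788, 2176 and 1853 CPM and was at 0.90 with an interval of 0.17 to 1.63 (adjusted p = 0.0943).

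Sums of middle sporulation genes are set beside SLZ1. The 8 listed (SPS1, SPS2, SPS4, SPR3, SMK1, SSP1, SPO21 and SPR28) summed to 343 to 4589 CPM in Pho92_delete, against 6049 to 26286 CPM in WT. In CUP1_Pho92_WT they summed to 6057 to 32171 CPM. Among the variants they summed to 264 to 1577 CPM in W5A, 472 to 942 CPM in W5A_W18A and 50.7 to 853 CPM in 110_155_delete, the 3 strains in which SLZ1 was called lower. They summed to 4864 to 27662 CPM in W18A and to 811 to 8432 CPM in W177A. In the strains where KAR4 alone was called they summed to 2215 to 9543 CPM (28_52_130_155_delete) and 6048 to 10828 CPM (W5AW18A_28-52_delete). The early meiotic sum was 7037 to 11379 CPM in Pho92_delete, against 9371 to 10246 CPM in WT. It was 6503 to 7177 CPM in W5A, 7018 to 7610 CPM in W5A_W18A and 2311 to 10013 CPM in 110_155_delete, against 7411 to 9024 CPM in CUP1_Pho92_WT. Each W5A library thus lay below the CUP1_Pho92_WT range for this sum too. The part of sporulation stage in the differences of SLZ1 and KAR4 was not tested.

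**Figure D4:**
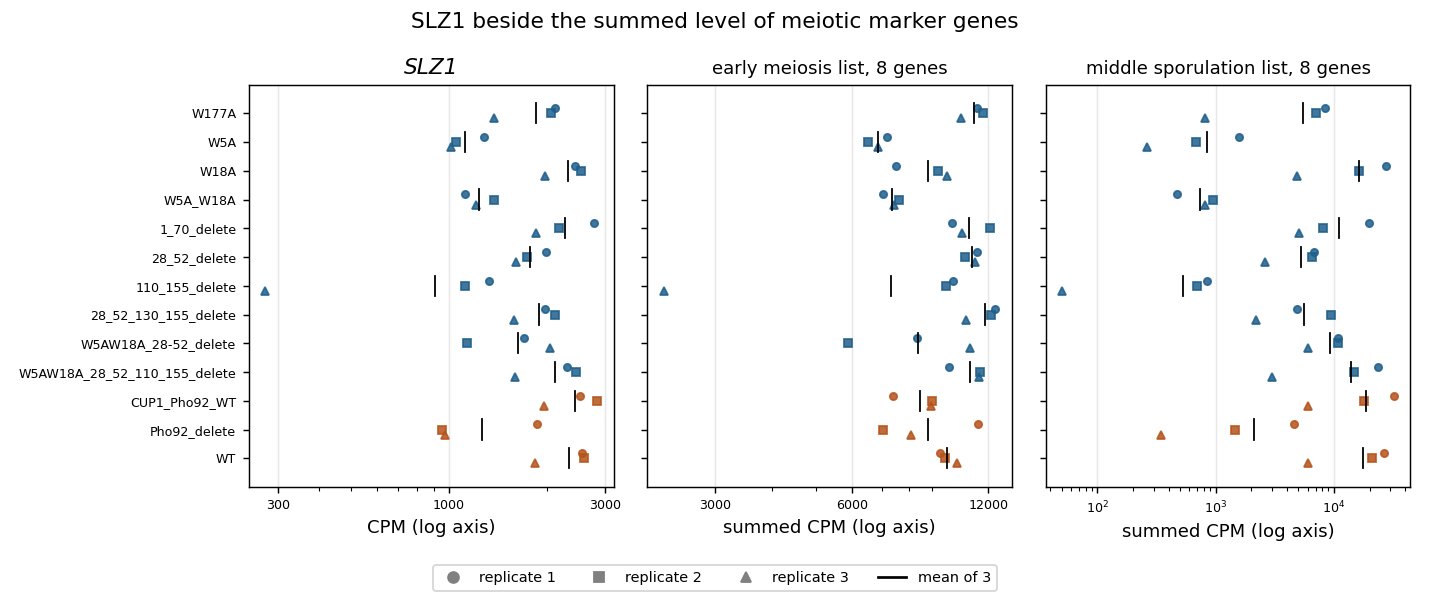
SLZ1 level (left), the summed level of 8 early meiotic genes (middle) and of 8 middle sporulation genes (right) in each library on logarithmic CPM axes, with strains down the page, 1 symbol per replicate and a bar for the mean of 3. W5A, W5A_W18A, 110_155_delete and Pho92_delete have the lowest means both of SLZ1 and of the middle sporulation sum, whose values run from 50.7 to 32171 CPM.

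Genes that work with the members gave the following counts in Pho92_delete against WT, where 18.4% of features were called higher and 14.8% lower and the median log2 of all features was 0.04. Of 6 genes listed around Kar4 (STE12, KAR3, CIK1, VIK1, KAR5 and PRM3), 4 were lower and the list median was -0.89. Not all are mating genes, since VIK1 is listed as a partner of Kar3. PRM3, a nuclear-envelope fusion protein, was at -1.65 (SE 0.54) and VIK1, a partner of the kinesin Kar3, at -1.29 (SE 0.23). Of 8 meiotic entry regulators 4 were lower and RME1, a repressor of meiosis, was higher, with a list median of -0.44. NDT80 was at -2.31 (SE 0.63) and the meiotic kinase gene IME2 at -1.09 (SE 0.36). Of 10 dynein and dynactin genes 3 were lower (median -0.32), DYN3 at -0.79 and PAC11 at -0.66. Of 3 nuclear pore partners of Dyn2, 2 were tested (NSP1 was not matched by name), and NUP82 was lower at -0.32 (list median -0.23). Of 9 CCR4-NOT subunits, the deadenylase that shortens poly(A) tails, 4 were lower (median -0.38), CDC39 at -0.62 and MOT2 at -0.46.

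The same lists are given for CUP1_Pho92_WT against Pho92_delete, which uses the same Pho92_delete libraries and had 19.2% of features called higher and 20.8% lower. All 8 middle sporulation genes were higher (median 3.38), SMK1 at 4.24 and SPS2 at 4.05, as all 8 were lower in Pho92_delete against WT (median -3.47), SMK1 at -4.12 and SPS2 at -3.91. No early meiotic gene was called in either comparison (medians 0.22 and -0.32). Of the Kar4 list 4 genes were higher (median 0.87), PRM3 at 1.82 and VIK1 at 1.50. Of the meiotic entry list NDT80 at 2.28 and IME2 at 0.98 were higher and RME1 at -1.24 was lower. Of the dynein list 4 were higher (median 0.34), DYN3 at 0.91 and PAC11 at 0.90, of the CCR4-NOT list 5 (median 0.47), CAF40 at 0.75 and CDC36 at 0.66, and of the pore list none (median 0.02). Of 5 tested copper-response genes (CUP1-2 was not matched by name; list median -0.27) the copper importer gene CTR1 was higher by 1.47 and CUP2, the activator of CUP1, was at -0.47 and lower, and in Pho92_delete against WT CTR1 was lower at -0.91 and CUP2 higher at 0.58 (list median 0.08). Of 8 haploid-specific genes 5 were higher and STE6 lower (median 0.45), STE3 at 1.30 and MF(ALPHA)2 at 1.12 (0.417 against 0.144 CPM), and in Pho92_delete against WT STE3 at -1.13 and MF(ALPHA)1 at -0.92 were lower (median -0.23).

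W177A against CUP1_Pho92_WT had 13.5% of features called higher and 7.04% lower. Limma without the replicate number as a term called no writer gene there, and with that term it called KAR4. Of the Kar4 list VIK1 was lower at -0.97 (list median -0.32), and of the dynein list 3 genes were lower (median -0.12), PAC1 at -0.87 and PAC11 at -0.58. RME1 at 1.20 and UME6 at 0.92 were higher among the meiotic entry genes, and CDC36 at -0.58 and CAF40 at -0.39 were lower among the CCR4-NOT subunits (median -0.27). CUP2 was higher at 0.77 and CTR1 lower at -0.76. STE6 was higher at 0.48 among the haploid-specific genes. No early meiotic, middle sporulation or nuclear pore gene was called, although the median of the middle sporulation genes was -2.05.

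Likeness of pattern was measured by Pearson's r of log2 CPM over the 39 libraries, after the mean of each replicate number was removed. The libraries of a strain share that strain, and since 110_155_delete replicate 3 stood apart, r without it follows each value. For SLZ1 the most alike features were YKR005C (0.98, and 0.97 without that library) and IME2 (0.98 and 0.97). IME4 was most like MRE11, a double-strand break nuclease gene (0.93 and 0.87), and HMG2, which encodes a sterol synthesis enzyme (0.91 and 0.85). MUM2 was most like YML053C (0.97 and 0.94) and YGL081W (0.96 and 0.91). KAR4 was most like the prohibitin gene PHB2 (0.93 and 0.92). VIR1 was most like the helicase gene DBP1 (0.95 and 0.93) and SNF2, a chromatin remodeller gene (0.94 and 0.93). DYN2 had lower values, with LIP1 (0.77 and 0.77) and SBH2 (0.73 and 0.74). For PHO92 the most alike were YNL234W (0.69) and PSY2 (0.68), but these values rest on the near-empty Pho92_delete libraries: over the other 36 libraries they were 0.16 and 0.10.

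Among the members, r was highest for MUM2 with SLZ1 (0.88, and 0.78 without 110_155_delete replicate 3) and for IME4 with MUM2 (0.87 and 0.75). VIR1 and DYN2 went in opposite directions (-0.54 and -0.71). KAR4 and VIR1 were at 0.08 with that library and at -0.21 without it. Over the 36 libraries other than Pho92_delete, PHO92 was between -0.29 (SLZ1) and 0.13 (DYN2) with the writer genes.

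The libraries also differed by replicate number within strains. In a fit with strain and number, the number was called for SLZ1 (limma F-test adjusted p = 0.0122), KAR4 (0.000139) and DYN2 (0.0079), where 48.7% of features were called. Libraries numbered 3 were lower than those numbered 1 by a log2 of -0.51 for SLZ1 (SE 0.14), -0.32 for KAR4 (SE 0.06) and -0.21 for DYN2 (SE 0.06). VIR1 was at 0.29 for number 3 (SE 0.12), with an F-test adjusted p of 0.0557. The middle sporulation sum was lowest in the library numbered 3 in 12 of the 13 strains. In CUP1_Pho92_WT it was 6057 CPM in number 3, against 32171 CPM in number 1, and in WT 6049 CPM against 26286 CPM. The part of sporulation stage in the effect of the number was not tested. The labels do not say what a replicate number stands for.

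A limit applies to IME4. RefSeq places RME2 across IME4 on the other strand, RME2 was not analysed here, and the use of strand in counting is not given in the sources used here, so reads of the 2 cannot be told apart.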

How the data were processed

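The authors deposited 1 table of whole-number counts for 6186 features, in which 46 annotation lines stand above the counts of each library. Those lines include scores from the authors' own principal components, so a deposited column mixes score values with counts. The annotation lines were left out and only the whole-number counts below them were analysed. The submitters' processing notes name STAR 2.7.10a, RSEM 1.3.1 and DESeq2 1.48.1 without a role, and the genome build, annotation and use of strand are not given in the sources used here. Names came from RefSeq R64 by locus tag (5630 of 6186 matched). No sequence, coordinate or length is given, because the build is not named.

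The 5840 features kept had 15 or more counts in total and, in 3 or more libraries, a rate worth 10 counts at the median depth. TMM scaling was used (trimmed mean of M-values), a prior count of 2 was added, and limma 3.58.1 (R 4.3.3) with a variance trend was fitted to log2 CPM of all 39 libraries, with Benjamini-Hochberg adjustment. The code was tested on simulated data. No 2 libraries of a strain agreed within sampling noise (39 pairs).

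The members and lists were chosen with earlier results of these data known. Named genes are the 7 members, the 2 most alike features of each (1 is not reported here), and from each list the 2 called genes of largest log2 size in 3 comparisons; other genes were named after their values were seen. Alternatives were RLE size factors, no filter, a prior count of 0.5, voom weights, only the strains compared, the replicate number as a term, each library left out, and, added after the data were seen, the 36 libraries other than Pho92_delete.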

Additional observations from a re-analysis of the deposited data

How the results depend on the processing

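Of 308 repeats of the counts of calls and the PHO92 differences under other settings, 275 kept direction and call or stayed within 1.5 times, 33 did not, and none reversed. RLE size factors, no filter and a prior count of 0.5 moved no count by more than that and ended none of these calls. Voom weights left 1 writer gene called in Pho92_delete against WT and gave 1 PHO92 call among the variants. Fits of only the strains compared gave 0 writer genes in Pho92_delete against WT, 1 in CUP1_Pho92_WT against Pho92_delete, 1 in the variants against Pho92_delete, and 2 PHO92 calls among the variants. The shares of all features called in the fits of only the strains compared are not given here. The 36-library fit gave 3 PHO92 calls. The cause was not tested, except that fewer libraries enter the smaller fits.

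Leaving out each library in turn gave 0 to 2 writer genes in Pho92_delete against WT, 1 to 2 in CUP1_Pho92_WT against Pho92_delete, 0 in CUP1_Pho92_WT against WT, 2 to 11 in the variants against CUP1_Pho92_WT, and 1 to 5 in the variants against Pho92_delete. It gave 2 to 4 over 13 strains and over 11 CUP1-driven strains, 3 to 5 for the replicate number, and 0 PHO92 calls among the variants. The PHO92 log2 stayed between -11.05 and -9.19 for Pho92_delete against WT and between 3.27 and 3.49 for CUP1_Pho92_WT against WT. Where a variant is left with 2 libraries, its spread is taken from all strains. The shares of all features called in the fits that left out a library are not given here either.

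With the replicate number as a replicate block, calls were 15 in the variants against CUP1_Pho92_WT, 6 in the variants against Pho92_delete, 4 over 13 strains and 4 over 11 CUP1-driven strains. Each writer gene call of the report was kept and no other count moved by more than 1.5 times. The share of all features called in this fit is not given here, so the counts have no background beside them. The calls gained against CUP1_Pho92_WT were KAR4 in W177A, 1_70_delete, 28_52_delete and W5AW18A_28_52_110_155_delete, DYN2 in 28_52_delete and 28_52_130_155_delete, and VIR1 in 28_52_130_155_delete, at adjusted p from 0.0036 (KAR4 in W177A) to 0.0465 (VIR1). Those gained against Pho92_delete were SLZ1 in 1_70_delete (adjusted p = 0.0303), DYN2 in 28_52_delete (0.0316) and KAR4 in W5A (0.0231) and W5A_W18A (0.0106). Deviations of same-numbered libraries correlated at 0.286 on average (lowest -0.456, 166 of 234 pairs over 0.1), and 30 of 39 libraries were closest to their own number, so the numbers do not pair every library.

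Not run were count-model tests, since limma was planned for deposited columns that mix annotation lines with counts, although the values analysed were whole-number counts. PHO92 per residue kept was not computed either, since no coding length was used.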
